A study of Homo sapiens with 24 samples.

Results

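The nuclear-encoded subunits of oxidative phosphorylation were followed through the induction of MIST1 or PTF1a in Panc-1 cells. Members were the genes whose listed symbol starts with NDUFA, NDUFB, NDUFC, NDUFS, NDUFV, UQCR, COX4 to COX8 or ATP5, or is SDHA, SDHB, SDHC or SDHD. This gave 92 of the 14409 genes listed in any of the 3 lines. Of these, 76 are subunits of complexes I to V: 37 of complex I, 4 of complex II, 8 of complex III, 12 of complex IV and 15 of complex V. The other 16 matched rows are assembly factors, paralogs, antisense RNAs and a pseudogene, and are described apart. The rule used the symbols alone, and was set with earlier results of these data known.

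Panc-1 is an established human pancreatic ductal adenocarcinoma line. Cells had been stably transfected with the empty Tet-One plasmid or with Tet-One carrying myc-tagged rat MIST1 or mouse PTF1a, selected in puromycin and screened as clones, so a line may differ from another by clone as well as by plasmid. Each line gave 4 Control libraries without doxycycline (Dox) and 4 Dox libraries after 72 h in 1 µg/ml, 24 libraries of polyadenylated RNA in all. The passage number was 32 for the empty plasmid and for PTF1a, and 33 for MIST1. All groups therefore shared the Panc-1 background and a Tet-One backbone, and only the Dox groups received the drug, including that of the empty plasmid.

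Oxidative phosphorylation passes electrons from NADH through complex I, or from succinate through complex II, to complex III, cytochrome c and complex IV. The proton gradient made on the way drives complex V, the ATP synthase. Complexes I, III, IV and V also hold subunits encoded in mitochondrial DNA, whereas complex II is wholly nuclear-encoded. The nuclear genes are constitutively active in most cells, NRF1 and ETS family factors are known regulators of many of their promoters, and a few subunits have paralogs used in particular tissues.

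Libraries held between 17210989 and 43018494 gene counts, and every subunit was listed and tested in all 3 lines. The epithelial keratins KRT8 and KRT18 and the Panc-1 marker VIM had at least 737, 515 and 3801 CPM in every library, and KRT19 had 64.2 to 1223. KRT7 was low, at 0.985 to 6.55 CPM, and EPCAM had 18.1 to 58.9. In Tet-PTF1a, KRT8 had 31824 to 75448 counts in Control and 13039 to 24661 in Dox, not scaled for depth. KRT7 went the other way there, with 25 to 65 and 73 to 148. CD68, a lysosomal gene used as a macrophage marker, had 31.1 to 260.2 CPM and PDGFRB 0.498 to 1.72, and PTPRC, PECAM1, VWF and DCN were not among the listed genes. In Tet-PTF1a, counts assigned to the human PTF1A gene were 0 to 2 in Control and 53 to 168 in Dox, and PRSS1 had 1 to 4 and 49 to 114. The plasmid carries mouse PTF1a and reads were mapped to the human genome. Whether the PTF1A counts came from the plasmid or the human gene was not tested. The other acinar markers chosen with PRSS1, namely CPA1, CELA3A and AMY2A, were not analysed here. The MIST1 gene BHLHA15 was not analysed here in Tet-MIST1, so induction of MIST1 there was not checked in these counts and rests on the label. One Dox library stood apart in 2 of the lines: Tet-One Dox replicate 1 and Tet-MIST1 Dox replicate 1 held more of the short transcripts, as shown by Spearman's rho across all tested genes, between each gene's deviation from the Control mean and its exon length, of -0.70 and -0.57. The other 22 libraries lay between -0.44 and 0.32. This matters for the subunits, whose median exon length was 940.5 bases against 3190 for all genes listed in Tet-One, and 42 of which were under 1000 bases. Most results within these 2 lines are therefore given with and without that library.

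To show the sequence around the start of genes that the results turn on, the 250 bases upstream of 4 genes were taken from RefSeq (GRCh38.p14). SDHD and SDHA are complex II subunits, COX5A and COX6B2 are complex IV subunits. The windows are chr11:112086623-112086872, plus strand for SDHD, chr15:74938074-74938323, minus strand for COX5A, chr5:218070-218319, plus strand for SDHA and chr19:55354720-55354969, minus strand for COX6B2, each written 5′ to 3′ on the gene's strand. Capitals mark matches, on either strand, to an NRF1 core (GCATGCGC), an ETS core (CCGGAAG) or an E box (CAGCTG), the last being the kind of site that bHLH factors such as MIST1 and PTF1a bind.
SDHD: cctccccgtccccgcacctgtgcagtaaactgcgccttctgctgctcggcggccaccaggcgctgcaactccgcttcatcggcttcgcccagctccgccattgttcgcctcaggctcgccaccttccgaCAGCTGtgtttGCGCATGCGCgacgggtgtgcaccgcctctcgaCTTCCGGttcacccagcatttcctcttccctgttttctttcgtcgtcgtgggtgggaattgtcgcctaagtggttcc
COX5A: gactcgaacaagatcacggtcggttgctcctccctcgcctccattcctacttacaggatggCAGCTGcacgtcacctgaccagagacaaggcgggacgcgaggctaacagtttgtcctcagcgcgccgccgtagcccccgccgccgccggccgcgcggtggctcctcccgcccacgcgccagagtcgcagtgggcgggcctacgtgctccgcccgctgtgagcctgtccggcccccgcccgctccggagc
SDHA: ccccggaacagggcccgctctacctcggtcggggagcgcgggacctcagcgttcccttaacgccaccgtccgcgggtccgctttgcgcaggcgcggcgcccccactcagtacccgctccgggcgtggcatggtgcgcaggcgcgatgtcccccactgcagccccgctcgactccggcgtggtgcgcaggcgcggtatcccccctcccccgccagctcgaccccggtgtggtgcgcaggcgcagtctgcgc
COX6B2: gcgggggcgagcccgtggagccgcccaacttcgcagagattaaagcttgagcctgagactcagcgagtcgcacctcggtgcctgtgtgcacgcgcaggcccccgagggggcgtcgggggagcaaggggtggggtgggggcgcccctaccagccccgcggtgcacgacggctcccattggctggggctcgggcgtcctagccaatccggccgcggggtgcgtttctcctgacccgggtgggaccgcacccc
SDHD held all 3 kinds of match, and in its window the NRF1 core occurred on both strands in an overlapping pair. COX5A held the E box string alone, and neither SDHA nor COX6B2 held any of these 3 exact strings in this window. Of the 76 subunits, 64 had a promoter in the RefSeq table. The NRF1 core was found in 12 of them (18.8%), against 2.81% of all 27305 promoters. The ETS core was found in 16 (25.0%), against 8.81%. The E box was found in 9 (14.1%), against 13.8%. These are counts of letters in a fixed window and not of bound sites. Only the exact strings above were searched, so other forms of the NRF1, ETS and E box sites were neither marked nor counted.

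In Control cells the subunits had Control means with a median of 109.7 CPM in Tet-One, 132.7 with the MIST1 plasmid and 97.8 with the PTF1a plasmid. CPM are counts of a gene relative to the total of its library, scaled here by the TMM factors of each line, so levels of different lines were scaled separately. Per kilobase of exon, complex IV subunits had the highest median of the 5 complexes in each line, at 249, 293 and 170.5 CPM per kb in Tet-One, Tet-MIST1 and Tet-PTF1a. Complex I subunits had medians of 76.8, 90.1 and 62.2 CPM per kb. ATP5B, the catalytic beta subunit of ATP synthase, had the highest level per kb in every line, at 699, 746 and 484 CPM per kb. COX6B2, the testis isoform of a complex IV subunit, was at 10.0, 2.18 and 2.97 CPM per kb.

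The summed CPM of the 76 subunits gives their joint level in each library. In Tet-One the Control libraries lay at 10474, 10629.9, 10397 and 10918 CPM and the Dox libraries at 17473, 10400.2, 10613 and 10124. Dox replicate 1 was above every Control library, Dox replicate 4 was below every Control library, and Dox replicates 2 and 3 lay within the Control range. In Tet-MIST1 the Control libraries lay at 11749, 12318, 11988 and 12472 CPM and the Dox libraries at 15049.8, 12206, 12832 and 12687. Dox replicates 1, 3 and 4 were above every Control library and replicate 2 was not. In Tet-PTF1a the Control libraries lay at 7977, 7957, 8021 and 7986 CPM and the Dox libraries at 7555, 7663, 7416 and 7790.3. Here every Dox library was below every Control library, with a change of -4.74% in the mean (7985 ± 26.8 in Control and 7606 ± 159 in Dox, SD, n = 4 each). This order depended on the scaling. As a share of all counts, without TMM factors, the subunits made up 0.786% to 0.792% in Control and 0.753% to 0.790% in Dox, a change of -2.28% in the mean, and Dox replicate 4 was above 3 of the 4 Control libraries. In these bulk samples, fewer cells of a type and less RNA per cell cannot be told apart.

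**Figure D1:**
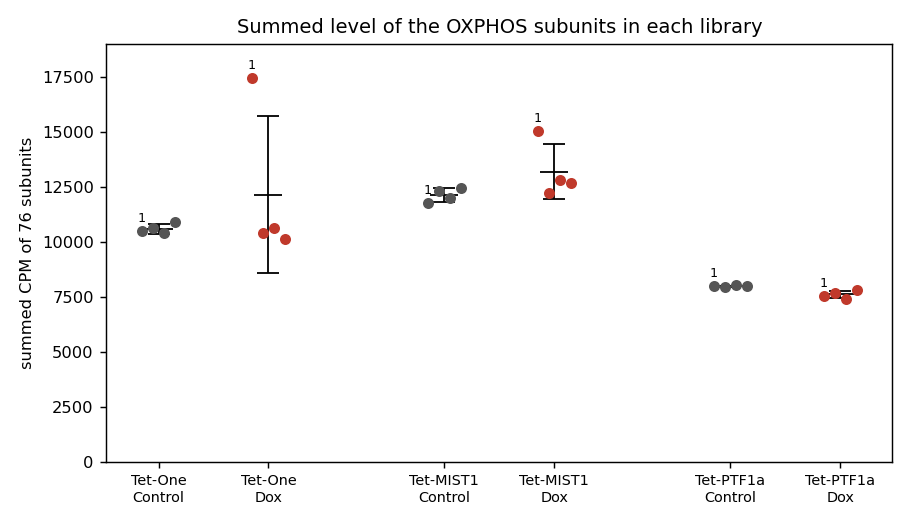
Summed CPM of the 76 subunits in each library, with Control in grey and Dox in red for each line; bars are the mean and SD of 4 libraries and the digit marks replicate 1. Tet-One Dox replicate 1 sits at 17473 CPM against 10124 to 10613 for the other 3 Dox libraries, and the Tet-PTF1a Dox libraries all sit below their Controls.

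The sums of the 5 complexes had the same direction within a line. In Tet-PTF1a, the summed CPM changed by -3.40% for complex I, -6.67% for complex II, -5.01% for complex III, -4.43% for complex IV and -5.83% for complex V. As shares of all counts the changes were -0.893% for complex I, -4.26% for complex II, -2.55% for complex III, -1.96% for complex IV and -3.39% for complex V, and every Dox library was below every Control library for complexes II and V alone. In Tet-MIST1, the sums were 5.57% (complex V) to 12.2% (complex IV) above Control, and 1.38% to 6.16% above it without Dox replicate 1. In Tet-One, the sums were 8.77% (complex II) to 18.4% (complex IV) above Control, and the change was -3.01% (complex III) to -1.29% (complex I) without Dox replicate 1.

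Tet-One asks what Dox does without an induced factor, and no subunit passed the test there. With edgeR's quasi-likelihood test and Benjamini-Hochberg adjustment over all genes (FDR under 0.05), 0 of 76 subunits were called, against a background of 0% of the 13428 genes tested. The DESeq2 test called 0 subunits as well, and 1 subunit, ATP5D, had an unadjusted p under 0.05. Of the subunits, 74 had a positive log2 fold change, with a median of 0.23 against 0.00 over all genes. Without Dox replicate 1, 15 of 76 were positive, the median was -0.05, 7 had an unadjusted p under 0.05 and 0 were called. The direction in Tet-One thus turned with 1 library. The biological coefficient of variation was 14.4% with that library and 4.79% without it.

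**Figure D2:**
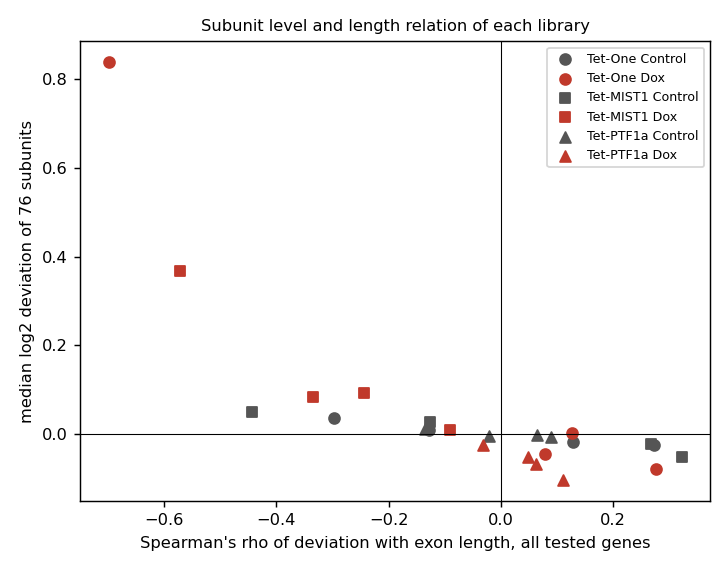
Each point is 1 of the 24 libraries; the x axis is Spearman's rho across genes between the log2 deviation from the Control mean and exon length, the y axis is the median log2 deviation of the 76 subunits. Tet-One Dox replicate 1 (0.84) and Tet-MIST1 Dox replicate 1 (0.37) have the most negative rho and the highest subunit medians; the points share the gene set and the Control mean of their line.

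Tet-MIST1 addresses how the subunits respond to MIST1, a secretory-cell bHLH factor. Dox induced 11 of the 76 subunits and repressed 0. The share induced, 14.5%, was near the background of 11.9% of 13623 genes, whereas 8.77% of all genes were repressed. The median log2 fold change of the subunits was 0.13 against 0.00 over all genes, and 73 were positive. Every Dox library was above every Control library for 17 subunits, against 14.1% of all genes. Without Dox replicate 1 the median was 0.05, 66 were positive and 15 were induced, and the 11 were all still called. The background was then 14.3%. With the trend of exon length removed from every library, 8 subunits were induced and 1 repressed, with a median of 0.02, where 13.4% of all genes were induced and 10.7% repressed.

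Complex I had 5 induced subunits, 13.5% of those tested, near the 11.9% of all genes. NDUFB10, an accessory subunit of the membrane arm (chr16:2009517-2011976, GRCh37), had 130.9, 128, 129.8 and 132 CPM in Control and 189, 159.8, 161 and 165 CPM in Dox. All 4 Dox libraries were above all 4 Control libraries, with replicate 1 the highest. The log2 fold change was 0.38 ± 0.06 (SE, adjusted p = 0.000863) and 0.32 without Dox replicate 1. NDUFB11 was induced by 0.29, NDUFC2 by 0.27, NDUFAB1, the mitochondrial acyl carrier protein, by 0.25 and NDUFA5 by 0.21. These values were 0.20, 0.21, 0.17 and 0.15 without Dox replicate 1. Of the core subunits, NDUFV1, which binds NADH and the flavin, had 0.19 and did not pass the test (adjusted p = 0.0646). Its call depended on the fit: it was induced without Dox replicate 1 (0.12, adjusted p = 0.0417), without Dox replicate 2 (0.23) and by DESeq2 (0.19). NDUFS1 had -0.05 (adjusted p = 0.352), and -0.04 without Dox replicate 1.

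In complex II, SDHD was induced. SDHD, a membrane anchor subunit (chr11:111957548-111966525), had 203, 219, 207 and 219 CPM in Control and 289.8, 237, 251 and 246 in Dox. The groups did not overlap. The log2 fold change was 0.27 ± 0.06 (adjusted p = 0.0106), and 0.21 without Dox replicate 1. The flavoprotein SDHA had 0.07 (adjusted p = 0.327) and the iron-sulfur subunit SDHB 0.11 (adjusted p = 0.261), and these were 0.04 and 0.03 without Dox replicate 1. In complex III, UQCRFS1, the Rieske iron-sulfur protein, was induced by 0.20 (adjusted p = 0.0413), and by 0.14 without Dox replicate 1. UQCRC1 had 0.12 (adjusted p = 0.203), and 0.04 without that library.

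Complex IV and complex V each had 2 induced subunits, 16.7% and 13.3% of those tested against 11.9% of all genes. COX5A (chr15:75212617-75230495) had 113, 119.8, 118 and 122 CPM in Control and 178, 137, 152 and 149 in Dox. The groups did not overlap, and the lowest Dox library was replicate 2. The log2 fold change was 0.38 ± 0.07 (adjusted p = 0.00343), and 0.30 without Dox replicate 1. COX7B, a small subunit of the same enzyme, was induced by 0.29, and by 0.23 without Dox replicate 1. COX4I1 had 0.05 (adjusted p = 0.691), and its sign turned to -0.05 without that library. ATP5D, the delta subunit in the stalk of ATP synthase (chr19:1241749-1244824), had 62.5, 52.7, 59.7 and 61.5 CPM in Control and 96.5, 71.6, 71.6 and 80.2 in Dox. Again the groups did not overlap. Its log2 fold change of 0.44 ± 0.09 (adjusted p = 0.00739) was the largest of the 76, and was 0.33 without Dox replicate 1. ATP5J2 was induced by 0.20, and by 0.14 without Dox replicate 1. The catalytic core had -0.02 for ATP5B (adjusted p = 0.763) and 0.06 for ATP5A1 (adjusted p = 0.404), and -0.05 and 0.02 without that library.

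NDUFB10, SDHD, COX5A, COX7B and ATP5D were called in each of the 8 fits that left out 1 Tet-MIST1 library. The number induced moved from 5 without Control replicate 1 or 3, where 7.24% and 7.06% of all genes were induced, to 29 without Dox replicate 2, where 14.5% were. It was 6 without Control replicate 2 or Dox replicate 4, where 7.92% and 8.96% of all genes were induced. It was 7 without Control replicate 4 or Dox replicate 3, where 8.55% and 9.85% were.

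**Figure D3:**
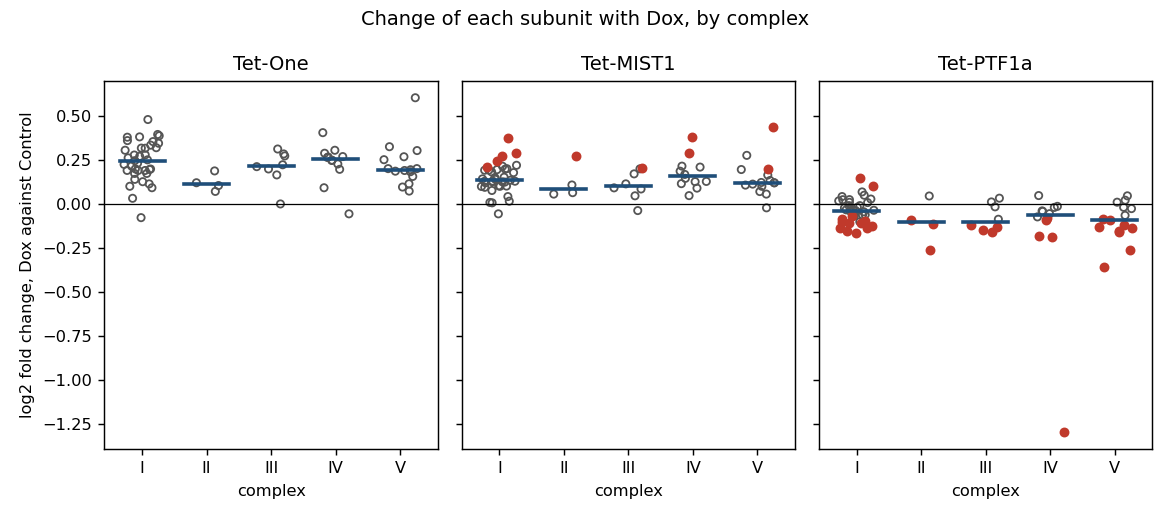
Log2 fold change of each of the 76 subunits with Dox (y axis) in the 3 lines, by complex (x axis); filled red points passed FDR under 0.05, open points did not, and the blue bar is the complex median. Tet-MIST1 has 11 filled points, all above 0, and Tet-PTF1a has 32 below and 2 above 0; the lowest point is COX6B2 at -1.29.

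Tet-PTF1a addresses the response to PTF1a, the bHLH factor of acinar cells. Dox repressed 32 of the 76 subunits and induced 2. The shares were 42.1% repressed and 2.63% induced, against 24.4% and 23.8% of the 14053 genes tested. Most changes were small: the median log2 fold change was -0.06 against 0.00 over all genes, and 58 subunits were negative. Every Dox library was below every Control library for 29 subunits, against 21.4% of all genes. Scaling by library size in place of TMM gave 22 repressed, 7 induced and a median of -0.02, where 19.2% of all genes were repressed and 31.3% induced. Removing the length trend gave 23, 7 and -0.03, where the shares over all genes were 24.1% and 24.9%. Fitting all 24 libraries together, with a shared spread, gave 3 repressed and 0 induced. In that fit 12.5% of all genes were repressed and 10.7% induced, so the repressed subunits were then under the share of all genes.

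The largest change was that of COX6B2, the testis isoform (chr19:55861070-55866182, minus strand). It had 5.40, 4.09, 5.26 and 4.99 CPM in Control and 2.12, 1.51, 2.32 and 2.07 CPM in Dox. All Dox libraries were under all Control libraries. The log2 fold change was -1.29 ± 0.12 (adjusted p = 1.20e-12), a change of -59.2%, on 32 to 229 counts per library. COX6B1, the widely used paralog, was at 138 ± 2.51 CPM in Control and 134 ± 3.16 in Dox (adjusted p = 0.202).

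SDHA, the succinate-oxidising flavoprotein (chr5:218338-257197), had 107, 108, 114 and 113 CPM in Control and 90.2, 90.3, 91.1 and 95.7 in Dox. The groups did not overlap. The log2 fold change was -0.26 ± 0.03 (adjusted p = 1.53e-10). SDHC and SDHD were also repressed, at -0.09 and -0.11, and SDHB was not called at 0.05 (adjusted p = 0.148). Pseudogene copies of SDHA (SDHAP1, SDHAP2 and SDHAP3) were listed as genes of their own, and reads shared with them could be assigned to either.

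**Figure D4:**
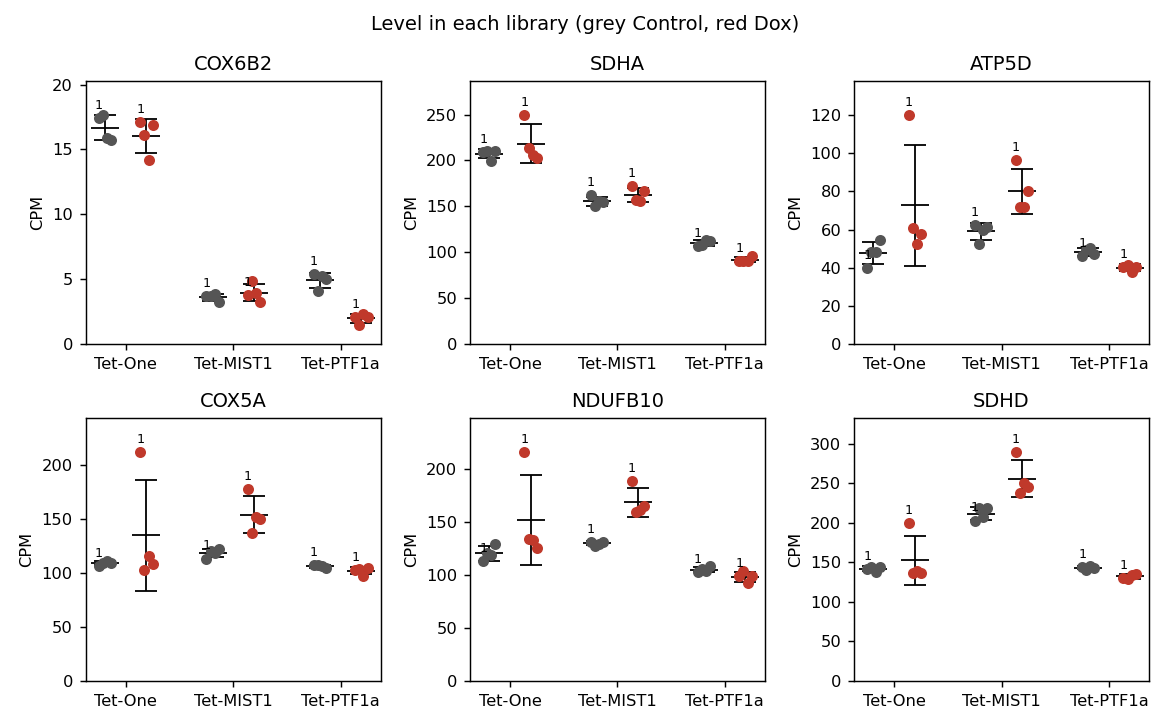
CPM (y axis) of 6 subunits in each library of the 3 lines, with Control in grey and Dox in red; bars are the mean and SD of 4 libraries and the digit marks replicate 1. COX6B2 and SDHA fall in Tet-PTF1a, NDUFB10, COX5A and SDHD rise in Tet-MIST1, and ATP5D does both; Tet-One Dox replicate 1 is high for all but COX6B2.

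Complex V had the most repressed subunits for its size after complex II, 9 of 15, or 60% against 24.4% of all genes. ATP5D had 46.1, 49.3, 50.3 and 47.4 CPM in Control and 40.5, 41.7, 37.6 and 40.5 in Dox, with no overlap. Its log2 fold change was -0.26 ± 0.04 (adjusted p = 2.45e-07). ATP5B was repressed at -0.12 (adjusted p = 1.51e-06), ATP5H at -0.16, ATP5G3 at -0.15 and ATP5L at -0.13. ATP5A1 had -0.02 (adjusted p = 0.519). ATP5E, the epsilon subunit, had 3.51, 3.47, 3.08 and 2.65 CPM in Control and 2.24, 2.92, 1.60 and 2.80 in Dox, which overlapped. Its call (-0.35 ± 0.14, adjusted p = 0.0345) was kept in 4 of the 8 fits that left out 1 library. ATP5E was at 47.6 CPM in Tet-One Control and 47.9 in Tet-MIST1 Control at the same listed coordinates. The low level in Tet-PTF1a was in both conditions, and its source was not tested.

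Complex III had 4 of 8 repressed, or 50% against 24.4% of all genes: UQCRC1 at -0.15 (adjusted p = 1.68e-05), UQCR11 at -0.16, UQCRB at -0.13 and UQCRH at -0.12. UQCRH has the near-identical copy UQCRHL, which was listed apart at 17.8 CPM against 196 CPM and was also repressed, at -0.17 (adjusted p = 0.0103), so that reads of the pair could be split either way. UQCRFS1 had 0.03 (adjusted p = 0.291). In complex IV, 5 of 12 were repressed, or 41.7% against the same 24.4%. Beside COX6B2, COX7A2 was repressed at -0.19 (adjusted p = 1.29e-07), COX8A at -0.18 (adjusted p = 6.22e-07), COX4I1 at -0.09 and COX7B at -0.08. COX5A had -0.05 (adjusted p = 0.117).

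Complex I had 11 of 37 repressed and both of the induced subunits. The repressed share of 29.7% was near the 24.4% of all genes, and the induced share of 5.41% was under their 23.8%. NDUFA12, an accessory subunit, was induced by 0.15 ± 0.04 (adjusted p = 0.000977) and NDUFB11 by 0.11 ± 0.04 (adjusted p = 0.0131). The repressed subunits ranged from -0.16 for NDUFA3 to -0.07 for NDUFS5 and included NDUFS3 and NDUFS8 of the peripheral arm, at -0.14 and -0.12. NDUFS1 and NDUFV1 had -0.04 (adjusted p = 0.230) and -0.03 (adjusted p = 0.361). Of the 34 calls, 26 were kept in all 8 fits that left out 1 library.

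The responses of the lines were compared by testing the difference itself. Between Tet-PTF1a and Tet-MIST1, which share no library, 26 of 76 subunits (34.2%) had a lower response in Tet-PTF1a and 0 a higher one. Over all 13506 genes, 18.6% were lower and 17.8% higher. The subunits were 9 of complex I, 2 of complex II, 2 of complex III, 6 of complex IV and 7 of complex V. The largest difference was that of COX6B2 (-1.41 ± 0.18, adjusted p = 2.59e-06), followed by ATP5D (-0.69 ± 0.11, adjusted p = 8.42e-05), ATP5E (-0.62 ± 0.22) and NDUFB10 (-0.46 ± 0.07). ATP5E was at 3.18 CPM in Tet-PTF1a Control against 47.9 in Tet-MIST1 Control, and its Tet-MIST1 change was not called (adjusted p = 0.0524). After the length trend was removed, 17 of 76 were lower and 2 higher, where 20.7% of all genes were lower and 18.6% higher. The share of lower subunits was then near that of all genes. All of these values include Tet-MIST1 Dox replicate 1, in which the median log2 deviation of the subunits was 0.37. Without that library, 20.6% of all genes were lower and 20.2% higher. The median change of the subunits within Tet-MIST1 was then 0.05, against -0.06 in Tet-PTF1a. The count of lower subunits without Tet-MIST1 Dox replicate 1 is given only as part of the range at the end, with a library left out.

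NDUFB10, SDHD, COX7B and ATP5D were called in opposite directions, up with MIST1 and down with PTF1a, and each differed between the lines. In Tet-PTF1a the calls of SDHD and ATP5D were kept in all 8 fits that left out 1 library, that of NDUFB10 in 6 and that of COX7B in 3. NDUFB11 was induced in both, by 0.29 and 0.11, and did not pass the test of the difference (-0.17 ± 0.09, adjusted p = 0.140). The other 6 subunits induced in Tet-MIST1 were not called in Tet-PTF1a. In Tet-One, NDUFB10, SDHD, COX7B and ATP5D had 0.34, 0.11, 0.25 and 0.60, and none was called. Without Tet-One Dox replicate 1 these values were 0.11, -0.05, -0.02 and 0.25. With all libraries kept, none of these responses in Tet-MIST1 passed the test of the difference from Tet-One. The differences were 0.03 ± 0.19 for NDUFB10 (adjusted p = 0.989) and 0.16 ± 0.15 for SDHD (adjusted p = 0.823). They were 0.03 ± 0.22 for COX7B (adjusted p = 0.991) and -0.17 ± 0.29 for ATP5D (adjusted p = 0.932).

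**Figure D5:**
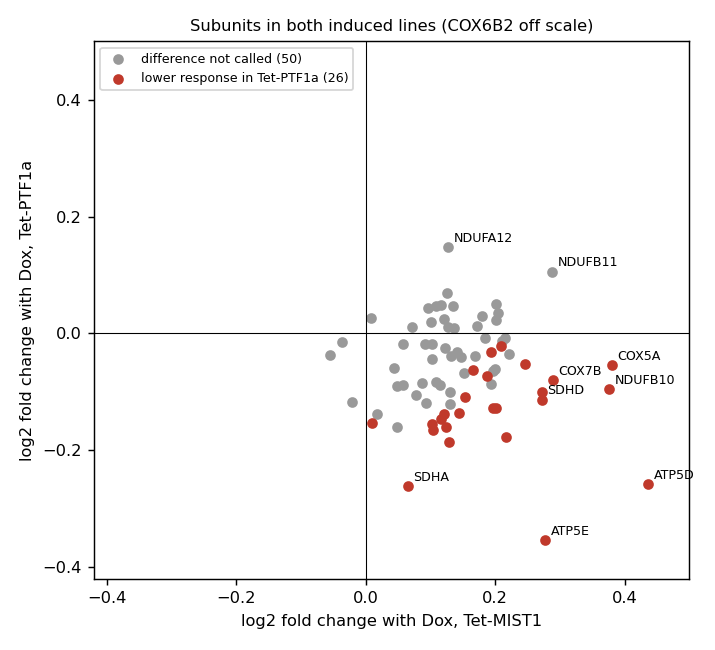
Log2 fold change with Dox of each subunit in Tet-MIST1 (x axis) and Tet-PTF1a (y axis); red points have a lower response in Tet-PTF1a by the test of the difference. The 26 red subunits include COX6B2, which lies outside the axes at 0.13 and -1.29 and is not drawn.

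Against Tet-One the biological coefficient of variation was 11.2% with Tet-MIST1 and 10.5% with Tet-PTF1a, against 5.18% between Tet-PTF1a and Tet-MIST1, and both comparisons below share the Tet-One libraries. For Tet-MIST1, 0 subunits differed by edgeR (0 with an unadjusted p under 0.05 and 0 by DESeq2), where 1.49% of 13859 genes were higher and 0.188% lower. Without Tet-One Dox replicate 1, 8 were higher in Tet-MIST1: COX5A (0.37), NDUFC2 (0.36), SDHD (0.31), COX7B (0.30), UQCR10 (0.29), NDUFA5 (0.28), ATP5J2 (0.28) and NDUFB10 (0.25). The share over all genes rose as well, to 7.58% higher and 6.57% lower. That fit kept Tet-MIST1 Dox replicate 1, and the median difference of the subunits in it was 0.17. No fit between these lines left out both libraries. Within the lines, each without its own Dox replicate 1, the subunit median was 0.05 in Tet-MIST1 and -0.05 in Tet-One. For Tet-PTF1a, 3 were lower than in Tet-One and 0 higher, where 7.34% of 13506 genes were lower and 5.52% higher. They were COX6B2 (-1.23 ± 0.15, adjusted p = 3.47e-05), SDHA (-0.34 ± 0.08, adjusted p = 0.0114) and ATP5D (-0.87 ± 0.28, adjusted p = 0.0489). Without Tet-One Dox replicate 1, 11 were lower, these 3 among them, and 2 were higher, NDUFA12 and ATP5F1. Over all genes 16.1% were then lower and 14.6% higher, so the count of lower subunits was not above that share.

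In the COX6B1 and COX6B2 pair and the NDUFA4 and NDUFA4L2 pair, the ubiquitous form carried nearly all of the signal where both were listed. COX6B1 had 411, 576 and 234 CPM per kb in Tet-One, Tet-MIST1 and Tet-PTF1a Control, against 10.0, 2.18 and 2.97 for COX6B2. NDUFA4, a complex IV subunit named for complex I, had 105, 129 and 83.9 CPM per kb, against 0.856 and 0.691 for its paralog NDUFA4L2 in Tet-One and Tet-MIST1. The 3 genes ATP5G1, ATP5G2 and ATP5G3 encode the same mature c subunit of ATP synthase. They were at 186, 98.7 and 43.1 CPM per kb in Tet-PTF1a Control, and ATP5G1 (-0.08) and ATP5G3 (-0.15) were repressed there, with ATP5G2 at -0.03 (adjusted p = 0.508). COX7A2L, a supercomplex assembly factor related to COX7A2, had -0.03 in Tet-PTF1a (adjusted p = 0.498). COX4I2, COX6A2, COX7A1, COX7B2 and COX8C were not analysed here.

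Of the 16 other matched rows, 15 were tested in Tet-One and in Tet-MIST1 and 14 in Tet-PTF1a. None was called in Tet-One or Tet-MIST1 by edgeR, where 1 and 2 had an unadjusted p under 0.05. In Tet-PTF1a, the complex I assembly factor NDUFAF4 was induced by 0.22 ± 0.05 (adjusted p = 0.000110), and NDUFAF3, NDUFAF7 and UQCRHL were repressed, at -0.23, -0.14 and -0.17. NDUFAF3 overlaps DALRD3 on the opposite strand. Of the subunits, 11 overlap another listed gene on the opposite strand, among them NDUFS3, ATP5H, ATP5J and NDUFC1, and the use of strand in counting is not given in the sources used here.

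Other mitochondrial gene lists were counted in the same fits, where 11.9% of all genes were induced and 8.77% repressed in Tet-MIST1, and 23.8% and 24.4% in Tet-PTF1a. Without Dox replicate 1 the Tet-MIST1 shares were 14.3% and 11.5%. Of 19 genes of the TCA cycle and pyruvate dehydrogenase, 4 were induced and 1 repressed in Tet-MIST1, and 2 and 8 in Tet-PTF1a. In Tet-MIST1 the induced genes included PC, pyruvate carboxylase (0.50, adjusted p = 0.000232), and PDHB, a pyruvate dehydrogenase subunit (0.35), and CS, citrate synthase, was repressed (-0.20). These were 0.51, 0.29 and -0.14 without Dox replicate 1, and the list had the same counts. In Tet-PTF1a, IDH2, the NADP-dependent isocitrate dehydrogenase, was repressed at -0.67 ± 0.03 (adjusted p = 1.23e-25) and SUCLG2 at -0.19, whereas IDH3A was induced by 0.25 and OGDH by 0.09. Of 48 assembly factors, 5 were induced and 3 repressed in Tet-MIST1 and 4 and 14 in Tet-PTF1a. The Tet-MIST1 counts were 8 and 4 without Dox replicate 1. TMEM70, an ATP synthase assembly factor, was induced in both, by 0.25 (0.18 without Dox replicate 1) and 0.19, and SDHAF4 was repressed in Tet-PTF1a at -0.29.

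Of 13 metabolite carriers tested, 3 were induced and 1 repressed in Tet-MIST1, with MPC1 and MPC2, which form the mitochondrial pyruvate carrier, at 0.42 and 0.39, and at 0.33 and 0.30 without Dox replicate 1. In Tet-PTF1a 1 was induced and 4 repressed, with SLC25A1, the citrate carrier, at -0.33. Of the 11 other nuclear chain genes, 3 were induced in Tet-MIST1 and 1 induced and 4 repressed in Tet-PTF1a. ETFDH, which feeds electrons from fatty acid oxidation to the chain, was called up with MIST1 (0.24, and 0.20 without Dox replicate 1) and down with PTF1a (-0.24). Regulators of mitochondrial biogenesis had 0 calls of 15 in Tet-MIST1, 1 repressed without Dox replicate 1, and 4 induced and 2 repressed of 16 in Tet-PTF1a, with TFB2M at 0.17 and PPARGC1B at -0.20. No gene of these lists was called in Tet-One by edgeR.

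The mitochondrial ribosomal proteins, another set of short nuclear genes, had 12 induced and 2 repressed of 79 in Tet-MIST1 and 9 induced and 10 repressed of 78 in Tet-PTF1a. Their median was 0.12 in Tet-MIST1, and 0.04 without Dox replicate 1 and 0.01 without the length trend. It was 0.17 in Tet-One, and -0.05 without Dox replicate 1, and 0.00 in Tet-PTF1a. The cytosolic ribosomal proteins, 81 genes, had medians of 0.20 for the empty plasmid, 0.15 for MIST1 and -0.03 for PTF1a, with 8 induced and 1 repressed in Tet-MIST1 and 9 and 23 in Tet-PTF1a. Without Dox replicate 1 the median turned to -0.08 for the empty plasmid and was 0.06 for MIST1. The genes of the mitochondrial DNA were not analysed here.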

How the data were processed

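Paired-end reads had been mapped by the authors with TopHat (hg19) and filtered to genes that exceeded 0.5 CPM in 4 samples or more. The authors deposited raw counts per gene for each line, not normalized, together with CPM values and their own edgeR comparison, neither of which was used here. The submitters' processing notes also name HTSeq and DESeq. Versions, annotation and use of strand are not given in the sources used here. Libraries held 17210989 to 43018494 counts. Date-like names, 20 per line, were left as listed.

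Within a line, Dox and Control were compared on these deposited counts by edgeR 4.0.16 (quasi-likelihood, TMM, robust, prior count 2) in R 4.3.3, over genes above 0.5 CPM in at least 4 of 8 libraries, with adjustment over all genes and a limit of 0.05. Differences between lines were the interaction of line and Dox over 16 libraries. Fold changes, SE and adjusted p are from these fits, and CPM are from the counts with TMM factors, per line. In 36 pairs of replicates the chi-square per degree of freedom was 1.38 to 236, so each library counted as 1 replicate. P-values measure the spread between these cultures of one line.

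Members and lists were chosen with earlier results of these data known. Named were the core subunits, the isoform sets, up to 8 members with the largest called change per direction in Tet-MIST1 and Tet-PTF1a, members with a called difference between lines, and the 2 largest calls per direction of other lists; further named subunits were chosen after their values were seen. The alternatives were DESeq2 1.42.0, library size scaling, other filters, a replicate block, all 24 libraries in one fit, removal of the trend with exon length, and each library left out. Chosen with the data already in view were removal of the length and GC trends together and, between lines, of the length trend, sums as shares of all counts, and the other lists without Dox replicate 1. The fits were tested on simulated counts. Promoter windows are from RefSeq and gene positions from the deposited tables.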

Additional observations from a re-analysis of the deposited data

Results flagged for a closer look

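In 13 of 78 groups of 4 libraries examined, the highest or lowest library was far from the rest, with a gap to its nearest neighbour, as a share of the group's range, above Dixon's 95% critical value; chance alone gives about 1 in 20 such groups. For the Tet-One Dox libraries the share was 0.933 for the summed subunits, 0.965 for complex I, 0.926 for complex II, 0.922 for complex III, 0.942 for complex IV and 0.894 for complex V, and 0.878 for ATP5D, 0.886 for COX5A, 0.910 for NDUFB10 and 0.902 for ATP5E, with Dox replicate 1 the highest each time. The groups share that library and are not independent. The other 3 were ATP5E in Tet-MIST1 Dox (0.911, replicate 1 the highest), SDHA in Tet-One Control (0.855, replicate 3 the lowest) and SDHA in Tet-PTF1a Dox (0.830, replicate 4 the highest).

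The response to Dox differed between lines by the interaction test of edgeR (FDR under 0.05). Tet-PTF1a minus Tet-MIST1, the log2 differences were lower for NDUFA10 (-0.15), NDUFA3 (-0.26), NDUFA5 (-0.22), NDUFAB1 (-0.29), NDUFB10 (-0.46), NDUFC2 (-0.36), NDUFS3 (-0.27), NDUFV1 (-0.22), NDUFV2 (-0.25), SDHA (-0.32), SDHD (-0.38), UQCRB (-0.32), UQCRC1 (-0.25), UQCRHL (-0.28), COX5A (-0.43), COX5B (-0.25), COX6B2 (-1.41), COX7A2 (-0.31), COX7B (-0.36), COX8A (-0.38), ATP5D (-0.69), ATP5E (-0.62), ATP5G3 (-0.25), ATP5H (-0.28), ATP5I (-0.25), ATP5J (-0.22) and ATP5L (-0.32). Tet-PTF1a minus Tet-One, they were -0.34 for SDHA, -1.23 for COX6B2, -0.87 for ATP5D and -0.58 for NDUFAF3.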

How the results depend on the processing

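Of the subunits named by rule, 20 fold changes within a line were called, and over 320 alternative values 269 were still called, 51 were not and 0 were called in the other direction. The other 24 were not called, and 11 of their 384 alternative values were. In Tet-MIST1 the count of induced subunits was 11 and went to 6 with the replicate block, where 7.06% of all genes were induced. It was 2 in the fit of all 24 libraries, under the share of 7.86% over all genes. With a library left out it was 5 to 29, where the share over all genes was 7.06% to 14.5%. Once the length trend was removed 1 was repressed, where 10.7% of all genes were. In Tet-PTF1a, 2 induced became 7 by library size scaling, 7 without the length trend, 4 without the length and GC trends, 0 in the fit of all libraries and 1 to 2 with a library left out. The shares of all genes induced were 31.3%, 24.9%, 25%, 10.7% and 21.5% to 22.7% in that order. The 32 repressed became 3 in the fit of all libraries, where 12.5% of all genes were repressed. They became 26 to 35 with a library left out, where 22.5% to 23.4% of all genes were. The median of -0.06 became -0.023 by library size, -0.0275 without the length trend and -0.032 without both trends. The cause was not tested. Between Tet-PTF1a and Tet-MIST1, 17 were lower and 2 higher after the length trend was removed, where 20.7% and 18.6% of all genes were. With a library left out 19 to 47 were lower, the most without Tet-MIST1 Dox replicate 2. The share of all genes lower was then 16.8% to 20.7%. Against Tet-One, removal of the length trend gave 1 higher in Tet-MIST1, where 3.19% of all genes were. It gave 1 higher and 8 lower in Tet-PTF1a, where 8.47% of all genes were higher and 11.3% lower. With a library left out 0 to 8 were higher in Tet-MIST1, against 0.974% to 7.58% of all genes. In Tet-PTF1a 0 to 2 were then higher and 1 to 11 lower, against 4.47% to 14.6% and 5.8% to 16.1% of all genes. With the replicate block Tet-PTF1a had 32 repressed and 2 induced and Tet-One 0; the correlation of same-numbered libraries was -0.41 to 0.37 over the 3 lines, so the samples share only a number, and 1 of 12 libraries correlated best with its own number. Tet-PTF1a Dox replicate 1 was the shallowest library, at 17210989 counts, and in this line both conditions held libraries near or under 20400802 counts, which limits the low genes COX6B2 and ATP5E. The summed level in Tet-PTF1a changed by -4.74% with TMM factors and by -2.28% as a share of all counts.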
